A study of Mus musculus with 18 samples.

Results

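The genes of folate one-carbon metabolism were examined in mouse hearts, with Aldh1l1 as the leading member. The group held 7 of the 23457 genes in the count table, namely Aldh1l1, Aldh1l2, Mthfd1, Mthfd1l, Mthfd2, Shmt1 and Shmt2, taken by name. Aldh1l1 was chosen by its measured difference in expression between PLCβ1a and blank hearts, and the other 6 members were taken for what their enzymes do. All 7 were found in both the count and the FPKM table, and all 7 were among the 12281 genes with enough counts to be tested. Their counts ran from 4 to 300 per heart. Levels differed between the members, with Shmt2 and Mthfd1 at percentiles 76.1 and 74.5 of the FPKM values above 0 and Mthfd1l at percentile 35.2.

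Male C57BL/6 mice, 17 weeks old, had received a recombinant adeno-associated virus of serotype 6 (rAAV6). The vector carried FLAG-tagged PLCβ1b in 6 mice and FLAG-tagged PLCβ1a in 6 mice. These are splice variants of phospholipase Cβ1, encoded by Plcb1. The 6 control mice received rAAV6-blank, which makes no protein product, so that all 3 groups carried the virus. The vector was given into the tail vein, and the transgene could be expressed in all chambers. The labels give the tissue as both ventricles, whereas the study's methods name the left ventricle. Strand-specific, paired-end sequencing was performed on RNA depleted of ribosomal RNA.

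Nuclear genes received between 3908354 and 7591558 counts per heart, from totals of 13246339 to 24155465 that included 37 mitochondrial genes. Plcb1 was at 0.986 ± 0.113 FPKM after rAAV6-blank (mean ± SD, n = 6), 3.86 ± 0.738 after PLCβ1a and 8.28 ± 3.38 after PLCβ1b. FPKM is the number of sequenced fragments scaled by the length of the exons and by the depth of the library. Every heart given PLCβ1a or PLCβ1b lay above every blank heart. Cardiomyocyte markers summed to between 19839 and 21695 CPM (counts scaled by library depth) in all hearts, and atrial markers to between 28.2 and 66.0. In whole tissue, fewer cells of a type and less RNA per cell cannot be told apart.

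Folate cofactors carry single carbon units within the cytosol and within the mitochondrion, which hold parallel sets of enzymes, and the units cross between them as serine, glycine and formate. Shmt1 (cytosol) and Shmt2 (mitochondrion) move a carbon from serine onto tetrahydrofolate. In the mitochondrion Mthfd2 oxidises that unit and Mthfd1l releases it as formate, and the trifunctional Mthfd1 interconverts the carbon forms in the cytosol. Aldh1l1 in the cytosol and Aldh1l2 in the mitochondrion convert 10-formyltetrahydrofolate to carbon dioxide and free tetrahydrofolate. Aldh1l1 is known for high levels in liver and in astrocytes of the brain.

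Aldh1l1 lies on mouse chromosome 6 (mm10, positions 90550848 to 90599171, plus strand), with 23 exons that together span 3084 bases. No other gene of the annotation overlapped it. Promoter windows from RefSeq (GRCm38.p6) were found for 6 of the 7 members. Those of Aldh1l1 and Mthfd2 are given here because these were the members with the highest and the lowest fold change in PLCβ1a hearts. Each holds the 250 bases before the RefSeq start, read 5′ to 3′ on the strand of the gene. Capitals mark the CCAAT box on either strand. The Aldh1l1 window is chr6:90550543-90550792 (plus strand) and ends 55 bases before the first exon of the deposited annotation. The Mthfd2 window is chr6:83317605-83317854 (minus strand).
Aldh1l1: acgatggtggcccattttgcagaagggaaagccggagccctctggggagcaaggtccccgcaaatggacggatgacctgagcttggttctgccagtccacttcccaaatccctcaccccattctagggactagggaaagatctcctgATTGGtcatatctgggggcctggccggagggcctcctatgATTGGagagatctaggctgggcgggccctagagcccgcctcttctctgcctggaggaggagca
Mthfd2: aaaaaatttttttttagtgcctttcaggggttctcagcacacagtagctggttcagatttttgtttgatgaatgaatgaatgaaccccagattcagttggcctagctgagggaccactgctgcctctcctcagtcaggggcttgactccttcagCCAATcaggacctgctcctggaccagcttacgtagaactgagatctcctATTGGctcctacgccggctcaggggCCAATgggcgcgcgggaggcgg
Aldh1l1 held CCAAT at 103 and 63 bases before its start, and Mthfd2 at 96, 47 and 22 bases. Mthfd1 and Shmt1 held 1 copy each, and Mthfd1l and Shmt2 held 0 copies. CCAAT was present in 33.8% of the 32851 windows of this length. TGATGNAA, the letters bound by ATF4 with C/EBP proteins, was in 0 of the 6 members' windows and in 3.45% of all windows. The E-box CACGTG (6.02% of all windows) and TATAAA (12.4%) were also in 0 of the 6. Both strands were searched, and the motifs were not required to be apart from each other. A match of letters is a description and not a binding site.

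Levels were compared between genes per exon length. Shmt2 had the highest level of the 7, at 4.73 FPKM over the 18 hearts, followed by Mthfd1 at 4.34 and Shmt1 at 1.70. Aldh1l2 (0.859), Aldh1l1 (0.577), Mthfd2 (0.431) and Mthfd1l (0.311) were below 1 FPKM. The order was the same with counts per kilobase. Mthfd1 exceeded Shmt1, and Shmt1 exceeded Aldh1l2, in all 18 hearts. The other neighbours overlapped. Shmt2 was above Mthfd1 in 14 of 18 hearts, Aldh1l2 above Aldh1l1 in 15, Aldh1l1 above Mthfd2 in 13, and Mthfd2 above Mthfd1l in 11.

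**Figure D1:**
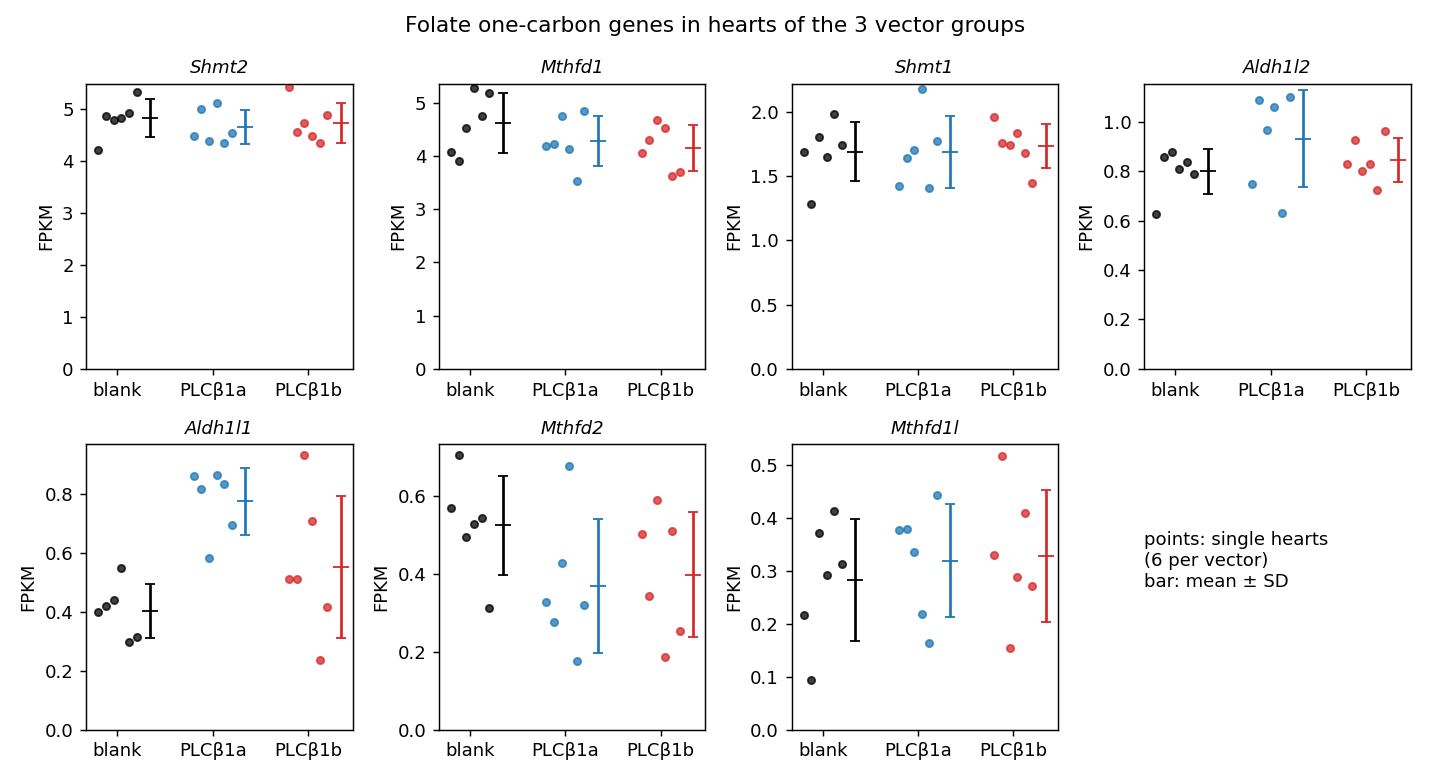
FPKM of the 7 genes (y axis, linear from 0, a separate scale for each gene) by vector group (x axis). Points are single hearts, 6 per group, and bars are the mean ± SD. The 6 PLCβ1a hearts sit above the 6 blank hearts for Aldh1l1, and the groups overlap for the other 6 genes.

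The first question was how each gene stood in PLCβ1a hearts relative to blank hearts. PLCβ1a is the variant that the study used as a control without effect on contraction. Aldh1l1 had the clearest separation of the 7, and this contrast is the one by which it was chosen, so its values are given as a description. In blank hearts its counts were 14, 22, 19, 29, 17 and 19. In PLCβ1a hearts they were 58, 47, 28, 41, 30 and 35. Scaled for length and depth, blank hearts ran from 0.296 to 0.549 FPKM with a median of 0.409. PLCβ1a hearts ran from 0.582 to 0.864 FPKM with a median of 0.825. The groups did not overlap in CPM or FPKM. Of all genes tested, 0.594% did not overlap between these groups in CPM. The nearest hearts were blank heart 33 and PLCβ1a heart 11, at 0.549 and 0.582 FPKM.

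The fitted Aldh1l1 level was 1.89-fold higher in PLCβ1a than in blank hearts (log2 fold change 0.92, standard error 0.20). Over 27 alternative fits the log2 fold change ran from 0.34, with limma on log2(FPKM + 1), to 1.01. The value of 0.34 is not on the scale of the others, because adding 1 to levels below 1 FPKM shrinks a log2 difference. With limma on log2(FPKM + 0.1) the log2 fold change was 0.81. The false discovery rate (FDR) from edgeR's quasi-likelihood test was 0.108, above the threshold of 0.1 used by the study, and it ran from 0.0355 to 0.291 over the alternatives, on both sides of that threshold. Since Aldh1l1 was chosen by this difference, none of these values is an independent test of it. With the threshold 0 of the 7 members were called, and 0.0814% of all genes (10 of 12281).

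The mitochondrial counterpart, Aldh1l2, was at 0.7997 ± 0.0903 FPKM in blank hearts and 0.932 ± 0.197 in PLCβ1a hearts. Of the PLCβ1a hearts 4 of 6 were above every blank heart, and heart 14, at 0.631 FPKM, was close to the lowest blank heart at 0.628. The log2 fold change was 0.24 (95% interval 0.00 to 0.48, FDR 0.555 in edgeR). Mthfd2 was lower in PLCβ1a hearts, at 0.368 ± 0.172 against 0.526 ± 0.127 FPKM, with 4 to 20 counts against 11 to 22. The log2 fold change of -0.45 had a 95% interval of -1.01 to 0.10, and the groups overlapped.

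The other 4 genes were closer to 0. Mthfd1 had a log2 fold change of -0.08 (95% interval -0.23 to 0.08), Shmt1 0.01 (-0.21 to 0.24) and Shmt2 -0.04 (-0.18 to 0.10). Mthfd1l had a log2 fold change of 0.15, but its interval of -0.38 to 0.67 was wide. The median log2 fold change over the 7 members was 0.01, beside -0.00176 over all genes tested.

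PLCβ1b, the variant that lowered contractility in the study, was then compared with blank. In PLCβ1b hearts the Aldh1l1 counts were 33, 31, 48, 29, 13 and 22. The FPKM values ran from 0.238 in heart 16 to 0.933 in heart 8, with a median of 0.512. The lowest and the highest Aldh1l1 FPKM of the 18 hearts were in this group. In CPM the lowest was blank heart 34 (0.794), just below PLCβ1b heart 16 (0.816). The SD was 0.241 FPKM, compared with 0.0916 in blank and 0.114 in PLCβ1a hearts. In CPM, 3 of 6 PLCβ1b hearts were above every blank heart and 0 below. In FPKM, 2 of 6 were above and 1 was below. Of all genes, 0.48% did not overlap between these groups, and Aldh1l1 did. The log2 fold change was 0.48 (95% interval 0.04 to 0.92), with an unadjusted p of 0.0345 and an FDR of 0.632 in edgeR. The blank hearts are among those by which Aldh1l1 was chosen, so these values are not an independent test. The fold change rested in part on single hearts, being 0.31 without PLCβ1b heart 8 (unadjusted p 0.157 in edgeR) and 0.59 without PLCβ1b heart 16. With limma it was 0.31 on log2(FPKM + 0.1) (unadjusted p 0.138) and 0.13 on log2(FPKM + 1) (unadjusted p 0.11). Adding 1 to levels below 1 FPKM shrinks the log2 difference, so 0.13 is not on the scale of the edgeR values. Aldh1l1 was called in 0 of the 28 alternative fits, with an FDR from 0.387 to 0.851.

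No member was called in PLCβ1b hearts (0 of 7, against 0.0977% of all genes, 12 of 12281). Mthfd2 was again lower than in blank hearts, at 0.398 ± 0.160 FPKM, with a log2 fold change of -0.34 (95% interval -0.88 to 0.20). Mthfd1l was at 0.329 ± 0.125 FPKM against 0.284 ± 0.115, a log2 fold change of 0.22 (-0.30 to 0.74). The log2 fold changes of Aldh1l2 (0.10), Mthfd1 (-0.13), Shmt1 (0.08) and Shmt2 (-0.0032) were smaller. The comparisons with blank share the same 6 control hearts, so these fold changes are not independent of those in PLCβ1a hearts.

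The variants were compared directly with each other. Aldh1l1 was lower in PLCβ1b than in PLCβ1a hearts by a log2 fold change of -0.44 (95% interval -0.83 to -0.05). The unadjusted p was 0.0279, and the FDR was 1.0 in edgeR. In FPKM, 4 of 6 PLCβ1b hearts were below every PLCβ1a heart, and in CPM 3 of 6. PLCβ1b heart 8 was above every PLCβ1a heart in both. The fold change ran from -0.62 to -0.20 over the 28 alternative fits, with -0.20 from limma on log2(FPKM + 1). This contrast shares the PLCβ1a hearts by which Aldh1l1 was chosen. The other 6 members had log2 fold changes from -0.14 to 0.11. No member was called (0 of 7), against 0.00814% of all genes, which was Plcb1 itself. Groups without overlap made up 0.179% of all genes and none of the members.

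**Figure D2:**
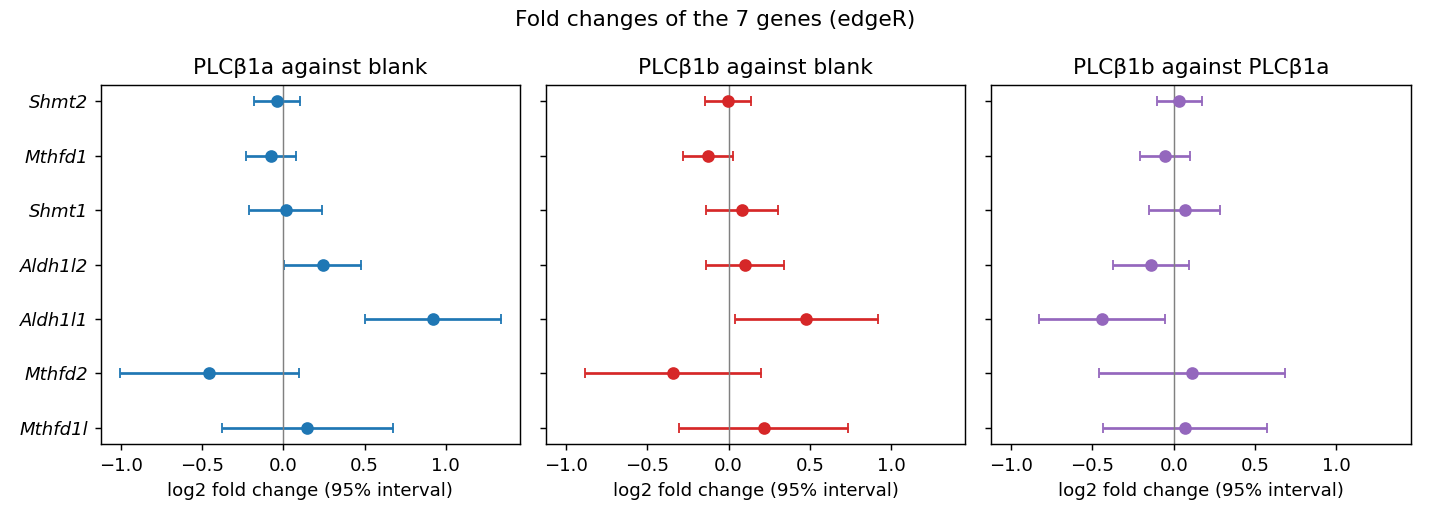
Log2 fold change (x axis) of the 7 genes (y axis) in the 3 comparisons, with 95% intervals from edgeR. Aldh1l1 is farthest to the right in the comparisons with blank, and the intervals of Mthfd1l and Mthfd2 are wider than those of Shmt1, Shmt2 and Mthfd1.

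The ratio of the mitochondrial to the cytosolic partner was taken within each heart. Aldh1l2 over Aldh1l1 was 2.07 ± 0.522 with rAAV6-blank, 1.24 ± 0.368 with PLCβ1a and 1.80 ± 0.792 with PLCβ1b. The PLCβ1a hearts ran from 0.757 to 1.66 and the blank hearts from 1.48 to 2.83, so the ranges overlapped. This ratio contains Aldh1l1 and is not independent of its choice. Shmt2 over Shmt1 was 2.90 ± 0.496, 2.79 ± 0.339 and 2.74 ± 0.326 for the blank, PLCβ1a and PLCβ1b vectors. Mthfd1l over Mthfd1 was 0.0604, 0.0736 and 0.0810 in the same order, far below 1 in every heart. This ratio sets a single mitochondrial enzyme against the trifunctional Mthfd1. Mthfd2 is left out of it, so it does not measure the mitochondrial path as a whole.

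**Figure D3:**
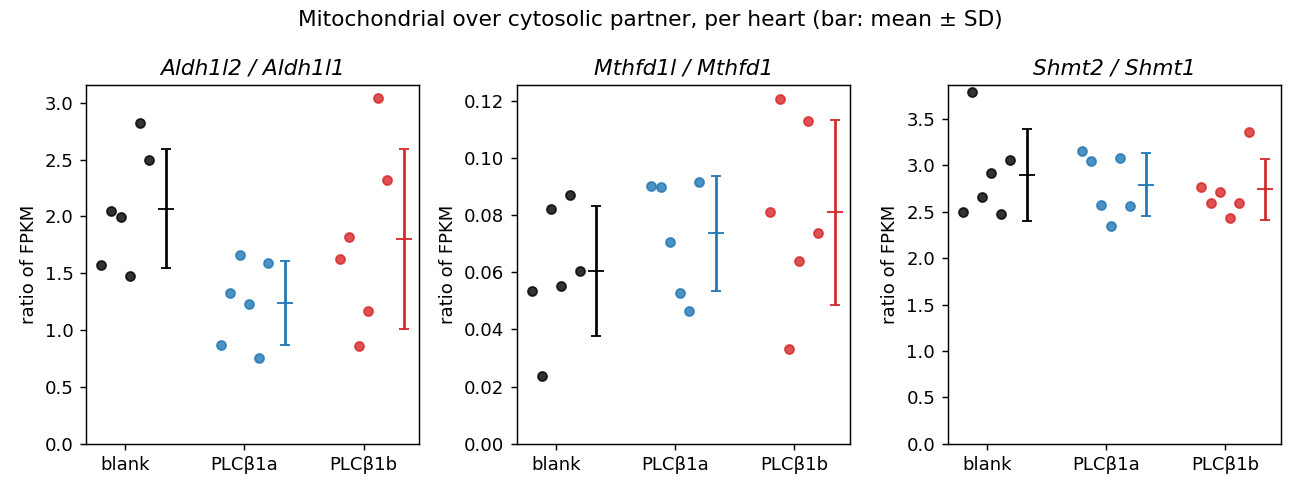
FPKM of the mitochondrial gene divided by that of its cytosolic partner (y axis, linear from 0) in each heart, by vector group (x axis), with the mean ± SD as bars. Aldh1l2 over Aldh1l1 is between 0.757 and 1.66 in PLCβ1a hearts, and Shmt2 over Shmt1 is between 2.35 and 3.79 in all hearts.

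No pair of members was shown to vary together from heart to heart. Of 21 pairs of members, 0 had a correlation of within-group deviations that passed a Benjamini-Hochberg adjustment (permutation test, n = 18 hearts, two-sided). Over all hearts the coefficient of variation in CPM was 10.5% for Shmt1 and 6.88% for Shmt2. Counting error alone gives 13.4% and 7.65%, so the test could hardly find a relation in pairs with these genes. The lowest unadjusted p for Pearson's r was for Aldh1l1 with Mthfd1l (r = -0.44, permutation p = 0.0842, adjusted p = 0.761), and r was -0.25 without the 2 hearts farthest from the median. Their Spearman's rho was -0.33 (permutation p = 0.231, adjusted p = 0.882). Aldh1l2 with Shmt2 had r = 0.48 (permutation p = 0.0888) and rho = 0.54 (permutation p = 0.0403, adjusted p = 0.847).

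No relation of Aldh1l1 to the level of Plcb1 was detected among the 12 hearts given a PLCβ1 variant. Pearson's r of the within-group deviations was -0.21 (permutation p = 0.639) and Spearman's rho -0.098 (permutation p = 0.792). Without the 2 hearts farthest from the median r was 0.32, and without PLCβ1b heart 8 it was 0.37, so that the sign rested on single hearts.

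The 5 genes whose within-group deviations were most like those of Aldh1l1 were B3gntl1 (r = 0.81), Smg6 (r = 0.81), Lig3 (r = 0.79), Hist1h4k (r = 0.79) and Tacc3 (r = 0.78). They were the highest of 12280 genes over 18 hearts that share libraries and depth, and are given as a description. Hist1h4k had only 5 to 14 counts per heart. With the group means kept, only Smg6 of the 5 stayed among the 5 most alike (r = 0.85). Among the other members the highest r with Aldh1l1 was that of Mthfd1, at 0.24.

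The annotation held 3 tested genes within 100 kb of Aldh1l1. Of them 0 were called in any comparison, beside at most 0.0977% of all genes. Klf15, which encodes a Krüppel-like transcription factor, was at 10.04 ± 0.731 FPKM after rAAV6-blank, 8.50 ± 1.03 after PLCβ1a and 8.13 ± 0.835 after PLCβ1b. Relative to blank it stood at -0.22 on the log2 scale with PLCβ1a (FDR 0.392 in edgeR) and -0.28 with PLCβ1b (FDR 0.313), the opposite sign to Aldh1l1. On that scale Slc41a3 (0.02 and -0.06) and Iqsec1 (0.08 and 0.09) were near 0.

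Of 24 other folate genes, which include transporters, reductases and the glycine cleavage system, 19 were tested. In any comparison 0 were called, beside at most 0.0977% of all genes. At so low a share, 0 calls in a short list do not set it apart. In PLCβ1a hearts 10 of the 19 were higher than in blank hearts, beside 49.4% of all genes tested. Their median log2 fold change was 0.00235. The lowest p-values were those of the folate carrier Slc19a1 (log2 fold change 0.49, FDR 0.528 in edgeR) and of Amt, a subunit of the glycine cleavage system (-0.41, FDR 0.558). In PLCβ1b hearts 5 of the 19 were higher (49.6% of all genes tested), with a median of -0.04. The dehydrogenase Sardh had a log2 fold change of 0.30 there (FDR 0.743 in edgeR).

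Related lists gave 0 called genes in each of the 3 comparisons, beside at most 0.0977% of all genes. In serine and methionine metabolism 7 of 14 genes were tested. Gamt, which methylates guanidinoacetate to creatine, had the lowest p in PLCβ1a hearts (log2 fold change -0.39, FDR 0.604 in edgeR), followed by Mat2a (0.17). Among 14 tested aldehyde dehydrogenases, the difference between PLCβ1a and blank was 0.28 on the log2 scale for Aldh9a1 (FDR 0.323 in edgeR) and -0.26 for Aldh1a1 (FDR 0.402). In PLCβ1b hearts 13 of these 14 genes were higher than in blank hearts, beside 49.6% of all genes tested. Their median log2 fold change was only 0.08, and Aldh3a2, counted as higher, stood at 0.00027. Whether this share departs from that of all genes was not tested. Aldh6a1 had the lowest p there (log2 fold change 0.08, FDR 0.585).

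The transcription factor ATF4 is known to drive Mthfd2, Shmt2 and Aldh1l2 under amino acid stress. The list of its response genes had 12 tested genes, Atf4 itself included. Of these, 4 were higher than blank with PLCβ1a and 4 with PLCβ1b, beside 49.4% and 49.6% of all genes tested. Relative to blank, Trib3 stood at -0.78 on the log2 scale with PLCβ1a (FDR 0.530 in edgeR). With PLCβ1b Ddit3 stood at -0.45 (FDR 0.463) and Ddit4 -0.30 (FDR 0.660). Purine synthesis, which takes carbon from 10-formyltetrahydrofolate, had 9 tested genes. Relative to blank, Paics stood at -0.12 on the log2 scale with PLCβ1a (FDR 0.503 in edgeR), and Adsl at -0.15 with PLCβ1b (FDR 0.473).

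Markers of other cell types, including those known for Aldh1l1, were summed per heart. Hepatocyte markers summed to between 0.672 and 1.17 CPM with rAAV6-blank (median 0.691), 0.663 to 2.104 with PLCβ1a (median 1.26) and 0.920 to 1.35 with PLCβ1b (median 1.23). Of these 10 genes, 8 had no more than 18 counts over all hearts, and Fgb was at 0. The only one tested was Cyp2e1, a cytochrome P450 of the liver, with 6 to 34 counts per heart. Relative to blank it stood at 0.72 on the log2 scale with PLCβ1a (FDR 0.411 in edgeR) and 0.33 with PLCβ1b (FDR 0.838).

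Glial and Schwann cell markers summed to between 9.19 and 15.2 CPM over all hearts, with medians of 13.2 with rAAV6-blank, 11.9 with PLCβ1a and 11.95 with PLCβ1b. Gfap, an astrocyte marker of that list, had no more than 18 counts over all hearts. Other genes of the list were above Aldh1l1. Aqp4, a water channel known from astrocytes, had 30 to 116 counts, and Cdh19, a cadherin known from Schwann cells, had 39 to 92. Counts from whole tissue do not show which cells expressed these genes. Of the 5 genes tested in this list 0 were called, beside at most 0.0977% of all genes in any comparison.

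Red cell genes were highest on average in PLCβ1a hearts. Alas2, the red cell enzyme of haem synthesis, had a median of 8.33 CPM with rAAV6-blank, 13.3 with PLCβ1a and 10.3 with PLCβ1b, and was not called (FDR 0.186 in edgeR for PLCβ1a). The 4 haemoglobin genes of that list were listed at 0 in the count table but not in the FPKM table. Hba-a1 was at 157 ± 32.2 FPKM with rAAV6-blank, 201 ± 62.6 with PLCβ1a and 167 ± 28.3 with PLCβ1b. Hbb-b1 was at 67.3 ± 25.2, 104.7 ± 28.7 and 75.04 ± 16.9 FPKM in the same order. The haemoglobin genes are near-identical copies, so that the share of each is uncertain. Of 2 tested markers of fat cells, Cfd stood at 0.97 on the log2 scale relative to blank with PLCβ1a (FDR 0.545 in edgeR). With PLCβ1b it stood at -0.22 (FDR 0.948), and Fabp4 at -0.02 and -0.05 in the same order. Of 6 fibroblast markers, 5 were higher than blank with PLCβ1a and 6 with PLCβ1b, at median log2 fold changes of 0.06 and 0.12. The part of any of these cells in the Aldh1l1 values was not tested.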

How the data were processed

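Total RNA of 18 hearts (6 per vector) was sequenced by the study. Per the labels and methods, the authors aligned reads to mm10 with TopHat2 2.0.10 and deposited HTSeq counts per gene, without normalization, and FPKM values per gene. Cufflinks 2.1 is named in the submitters' processing notes. The 7 members and all lists were chosen with earlier results of these data known. Hearts were grouped by their labels. edgeR 4.0.16 was applied to all 18 hearts in one model, with its quasi-likelihood test at the package's default settings, TMM scaling and filterByExpr (minimum count 10). P-values were adjusted by the Benjamini-Hochberg method over 12281 genes and called at an FDR below 0.1. Robust estimation was not planned and served as the main fit in a draft. It was left as an alternative after both results for Aldh1l1 had been seen. DESeq2 without independent filtering was also not planned. Other alternatives used DESeq2 1.42.0, limma 3.58.1 on log2(FPKM + 0.1) and log2(FPKM + 1), other scaling and filters, and each heart left out. The fits were tested on counts simulated from the fitted model, as a check of the code. Recovery was not examined by level, so it is not known for genes as low as Aldh1l1. Permutation tests shuffled hearts within groups 100000 times. Counting was strand-specific per the methods. Shmt2 overlaps Ndufa4l2 on the opposite strand. Named genes were the members, Plcb1, called genes or the 2 lowest p-values of each list against blank, neighbours within 100 kb and the 5 genes most like Aldh1l1. Some genes that this rule names are not reported here. Hearts are separate mice by label. Mthfd2 had 4 to 22 counts per heart, for which counting error alone gives a coefficient of variation of 27.3%.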

Additional observations from a re-analysis of the deposited data

How the results depend on the processing

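No paired analysis was possible because the mouse numbers differ between the groups. Genes called between PLCβ1a and blank hearts numbered 10 as reported. The count was 33 with DESeq2, 32 with no filter, 6 with only the groups compared, 6 with limma on either FPKM scale, 2 at an FDR below 0.05, 17 with robust estimation and 23 with DESeq2 without independent filtering. It ran from 2 to 20 with each heart left out. Between PLCβ1b and blank hearts, 12 genes were called as reported, 24 with DESeq2 with or without its filter, 26 with no filter, 6 with only the groups compared, 4 and 5 with limma at pseudocounts of 0.1 and 1, and 6 at an FDR below 0.05. It ran from 4 to 17 with each heart left out. Between the variants 1 gene was called, which was Plcb1, and 1 to 2 with each heart left out. The count was 2 with no filter, with only the groups compared or with mitochondrial genes left out. With robust estimation it was 0, so that Plcb1 was not called either. In that fit 543 of 12281 genes had an unadjusted p below 0.05 in edgeR, beside 560 in the main fit. Of the members, 0 were called in PLCβ1a hearts as reported. Aldh1l1 alone, so 1 member, was called with no filter, with only the groups compared, with robust estimation and with DESeq2 without independent filtering, at a log2 fold change of 0.92 in each and an FDR of 0.0355, 0.0751, 0.0542 and 0.037. With each heart left out 0 to 1 were called, and its log2 fold change was 0.82 to 1.01. Robust estimation and DESeq2 without independent filtering were not planned in advance. DESeq2 with its filter gave 5 members, Aldh1l1 included, no adjusted p in this comparison, so no call was counted.

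Of 583 member fold changes under the alternatives, 557 kept their direction and side of the threshold, 7 passed it (all Aldh1l1 in PLCβ1a hearts) and 19 reversed. Shmt1 in PLCβ1a hearts was -0.0070 and -0.0041 with limma at pseudocounts of 0.1 and 1, and -0.048 to 0.077 with each heart left out. With each heart left out, Mthfd1l ran from -0.010 to 0.26 in PLCβ1a hearts and from -0.062 to 0.20 between the variants, Shmt2 from -0.030 to 0.018 in PLCβ1b hearts, and Mthfd2 from -0.036 to 0.34 between the variants. The correlation of Aldh1l1 with Plcb1 ran from -0.58 to 0.37. The cause of these changes was not tested.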
